A study of Mus musculus with 9 samples.

Results

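Synaptic vesicle release machinery was examined as 59 genes of the 12388 named genes in the deposited tables, chosen by a rule on gene symbols. The choice was made with earlier results of these data known. The rule covers synaptotagmins, synapsins, syntaxins and their binding proteins, SNAP and VAMP proteins, Rab3 GTPases, complexins and SV2 proteins. It also covers synaptophysin, Rims and Unc13 proteins, and the ATPase Nsf with its adaptors. Of 77 RefSeq symbols that satisfy the same rule, 59 were listed, and 58 of these were in both tables; Syt16 was listed for the first comparison only. Total RNA of E12.5 retinas from CD-1 mice was sequenced in 9 samples that form 3 groups of 3. The heterozygote group was Neurog2GFP/+, with GFP at one allele of the proneural gene Neurog2. The mutant group was Neurog2GFP/GFP, with GFP at both alleles. The knock-in group was Neurog2GFP/Mash1KI, with GFP at one allele and the knock-in at the other, so every group carries at least one GFP allele and there is no group without one. Each sample is a pair of GFP-positive optic cups, and no cell sort is named.

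At a synapse, a vesicle fuses with the plasma membrane when the vesicle SNARE Vamp2 zips together with a syntaxin such as Stx1a and with Snap25 on the target membrane. Rims and Unc13 proteins prime this complex, complexins clamp it and synaptotagmins trigger it on calcium entry; Nsf and its SNAP adaptors then take the spent complex apart. Many relatives of these proteins serve membrane traffic in every cell, among them the endosomal syntaxins, Vamp3 and Snap23. In the embryonic retina, neurons begin to express the synaptic members as they differentiate, well before synapses form, while dividing progenitors rely on the general ones.

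Proneural factors such as Neurog2 bind E-boxes, CANNTG, and the repressor REST keeps neuronal genes silent in other cells through the RE1 element. Promoter sequences of RefSeq (GRCm38.p6, the mm10 assembly, 250 bases before to 50 after a gene's start) were found for 47 of the 59 members. They are shown for Rab3c, Stx7, Napb and Syp, which are 4 of the 8 members called lower in the mutant, with every CANNTG in capitals. Each stretch is 100 bases that end before both the RefSeq start and the authors' locus. For Rab3c and Stx7 it was placed to hold the last CANNTG before that limit. For Napb and Syp, with no CANNTG before the limit, it ends at the limit. Napb has CACCTG past the limit, at -20 from the RefSeq start, outside the stretch shown.
Rab3c, chr13:110280215-110280314, minus strand: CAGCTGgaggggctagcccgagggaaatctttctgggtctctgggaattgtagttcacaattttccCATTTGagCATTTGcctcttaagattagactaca
Stx7, chr10:24149155-24149254, plus strand: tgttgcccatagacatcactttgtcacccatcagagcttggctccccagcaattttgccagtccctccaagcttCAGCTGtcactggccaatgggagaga
Napb, chr2:148732468-148732567, minus strand: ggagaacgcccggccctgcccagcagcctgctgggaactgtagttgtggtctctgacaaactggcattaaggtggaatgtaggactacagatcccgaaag
Syp, chrX:7638371-7638470, plus strand: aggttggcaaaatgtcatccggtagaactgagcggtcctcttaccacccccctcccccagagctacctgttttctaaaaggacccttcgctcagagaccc

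Over the full windows and both strands, CANNTG was in 39 of the 57 promoters of the members (68.4%), those of 35 of the 47 genes, and in 72.3% of all 32851 promoters. Its special cases were also counted: CAGCTG was in 15 of the 57 member promoters (26.3%), those of Rab3c and Stx7 among them, and in 16.3% of all promoters, CAGATG in 3 (5.26%) and in 17.2%, and CATATG in 0 and in 3.91%. The left part of RE1, TTCAGCACC, was in 0.371% of all promoters and in 2 of the 57 member promoters (3.51%), those of Syn1 and Unc13a. The right part of RE1 was in 0.137% of all promoters and, among the members, in that of Unc13a. Both parts were in 5 promoters of the whole table, counted at any spacing and on either strand, of which 1 is that of Unc13a. The 27 bases just inside the Unc13a start, with 8 bases between the parts, are shown with the parts in capitals. Beside them is the far upstream end of the Syn1 promoter.
Unc13a, chr8:71671727-71671753, plus strand, opposite to the gene: TTCAGCACCgggggcgcGGACAGCGCC
Syn1, chrX:20921122-20921168, minus strand: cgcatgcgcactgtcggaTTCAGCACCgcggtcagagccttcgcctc
These matches describe letters in a window; no binding was measured, and the values of Unc13a and Syn1 follow below.

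The authors deposited one pooled value per group and transcript, so no spread between samples can be given and the depth per sample is unknown. Levels are in RPKM, read counts scaled to transcript length and to the mapped reads of the library, summed over the listed transcripts of a gene. The error enters only through the authors' own Cuffdiff test, and a gene was called when any of its transcripts had q of 0.05 or less in the authors' deposited table. Neurog2 itself had 30.2 RPKM (heterozygote) and 36.2 RPKM (mutant) in the first table, without a call, and 35.5 RPKM (mutant) and 112 RPKM (knock-in) in the second, called higher. Because a transcript's value does not tell coding from untranslated reads, it checks no label, and groups are named as labelled. Retinal progenitor markers were listed for 11 of 11 genes, with none called by Cuffdiff in either comparison and 3 and 1 genes at an unadjusted p below 0.05. They summed to 2570 RPKM for heterozygotes against 3122 RPKM for mutants. All 11 were higher in the mutant, where 54.6% of all genes were, with a median log2 ratio of 0.32. In the second comparison they summed to 3063 RPKM for mutants against 2995 RPKM for knock-ins, with 6 of the 11 higher.

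Other differences between the groups run beside every result on these genes. Retinal ganglion cell markers, listed for 12 of 13 genes, summed to 1110 RPKM for heterozygotes against 599.6 RPKM for mutants, with 7 called lower. All 12 of these markers had lower summed RPKM in the mutant, where 45.4% of all genes did. In the second table they summed to 588 RPKM for mutants against 809 RPKM for knock-ins, with 2 called higher. In these bulk samples fewer neurons and less RNA per neuron cannot be told apart. Sex-linked genes stood apart too, without a call. The X-inactivation RNA Xist had 184, 505 and 174 RPKM in heterozygote, mutant and knock-in, and the Y-linked Eif2s3y had 21.9 RPKM, a listing at 0, and 28.6 RPKM. Kdm5d, also Y-linked, had 12.8, 0 and 19.3 RPKM, and the Y-linked Ddx3y and Uty were near 0 in the mutant only (0.0104 and 0.0168 RPKM). By these values the mutant differed from both other groups in sex make-up, which cannot be told apart from genotype. The members Syp and Syn1 lie on the X chromosome. The part of either difference in the member values was not tested.

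Comparing mutant with heterozygote retinas asks what loss of the second Neurog2 allele changes. Several genes known from synaptic release were called lower. Snap25 went from 43.3 to 21.3 RPKM, Syp from 16.7 to 8.15 RPKM and Syt13 from 10.7 to 4.75 RPKM. In all, 8 of 59 members (13.6%) were called lower, against 1.09% of the 12247 genes of the table, and none was called higher, against 0.245% of them. The members were chosen with earlier results of these data known, so these shares are descriptive only. At q of 0.10 or less the counts were again 8 and 0, against 1.38% and 0.31% of all genes, and after a filter at 1 RPKM 8 and 0, against 1.06% and 0.237%. With the deposited p unadjusted and below 0.05, 16 members had a lower transcript, against 6.2% of all genes, and 3 a higher one, against 4.85%. All 8 calls had p = 5e-05 and q = 0.0109, the lowest of the authors' deposited table. Without the X-linked members, a setting chosen after the data were seen, 7 were called, because Syp is the 1 call on the X chromosome. The share of all genes called without the X chromosome was not computed.

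Over all 59 members the values were mixed. Summed RPKM was lower in 33 of 59 members, with a median log2 ratio of -0.14, while 45.4% of all genes were lower, with a median of 0.03. Members spread from -1.66 to 0.97. A log2 ratio of -0.5 or below was found in 17 members (28.8%) and in 7.86% of all genes with a finite ratio, and a log2 ratio of 0.5 or above in 4 members (6.78%) and in 5.21% of all genes.

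**Figure D1:**
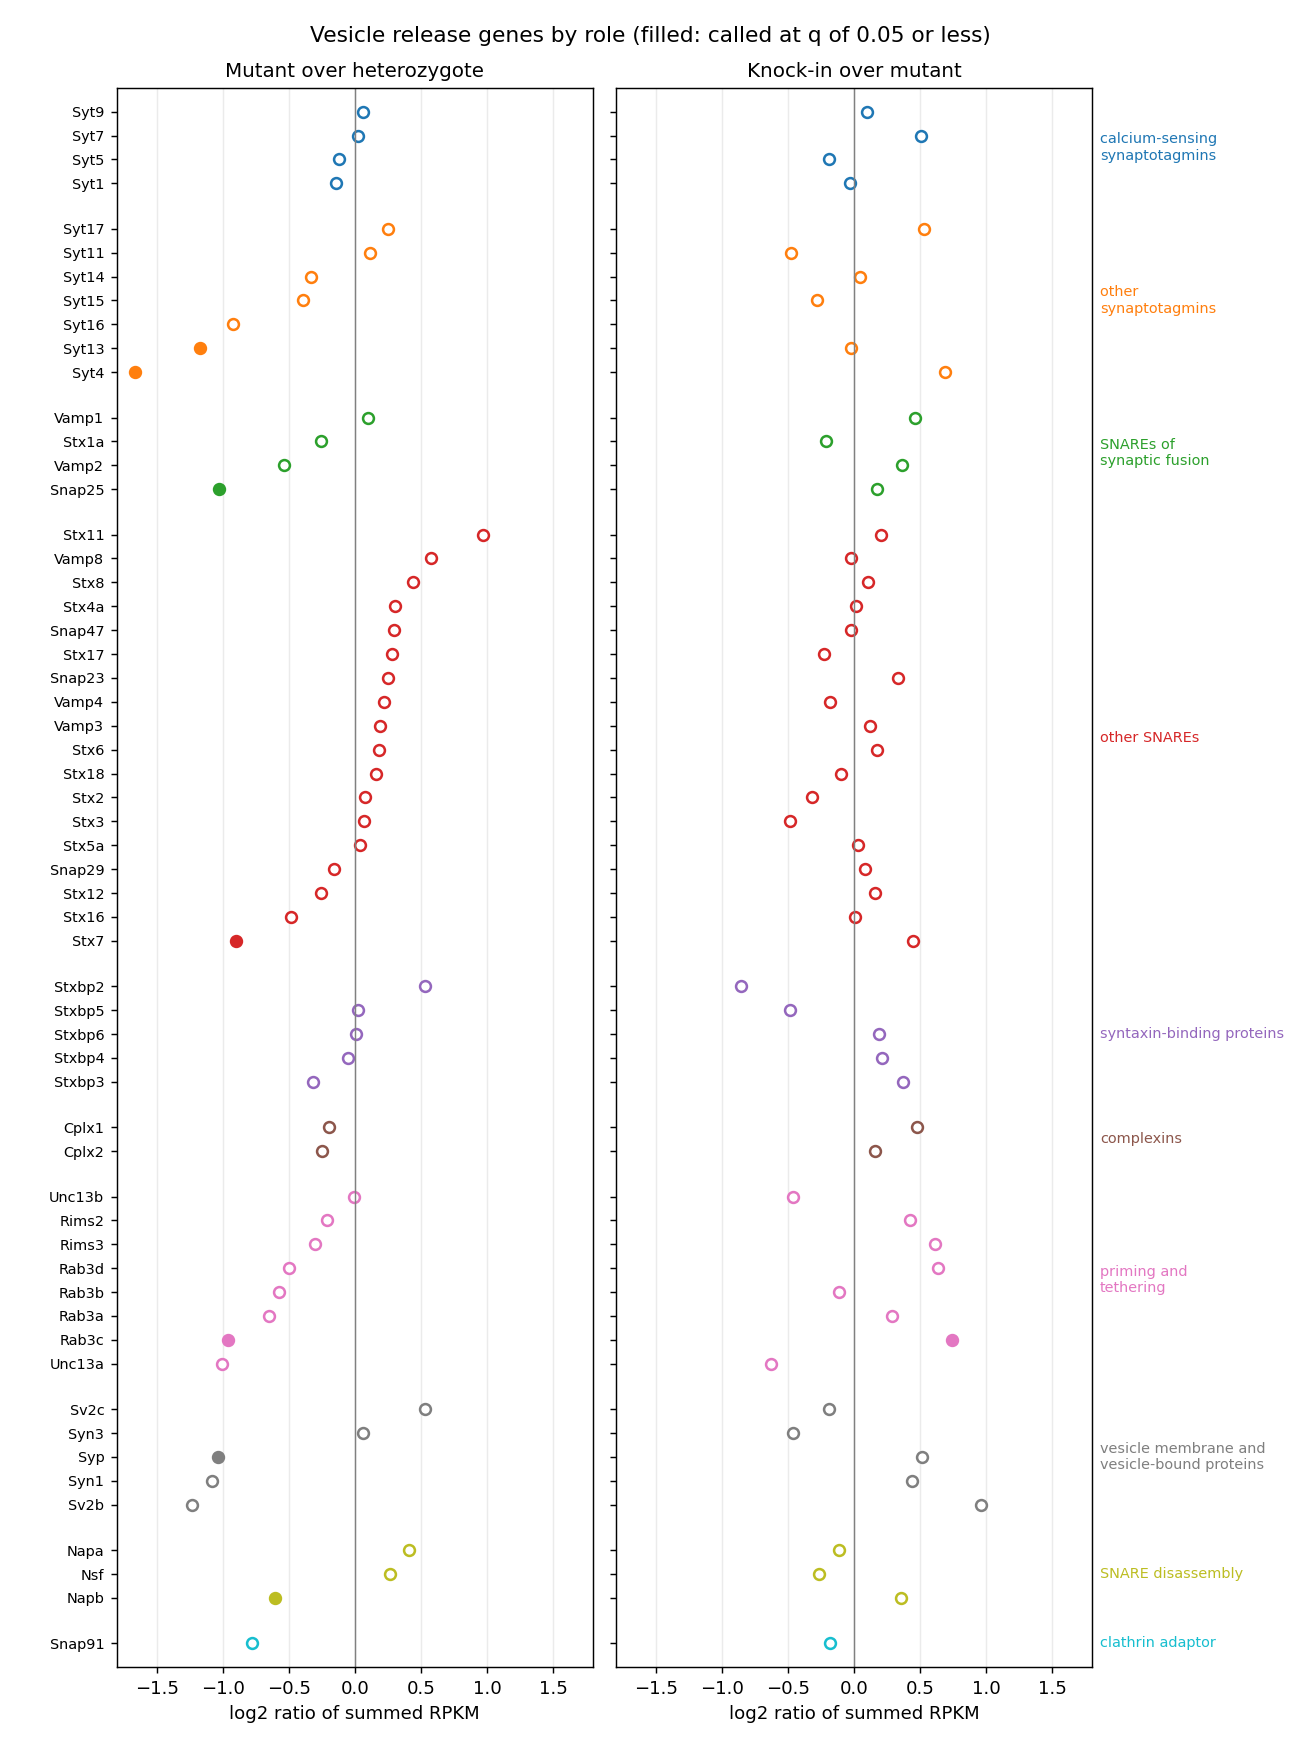
Log2 ratio of summed RPKM for 57 of the 59 members, grouped by role and coloured by it, for mutant over heterozygote (left) and knock-in over mutant (right); filled points are genes called at q of 0.05 or less. On the left, 7 filled points lie between -0.61 and -1.66 while most of the other SNAREs lie above 0; on the right, Rab3c at 0.74 is the one filled point, and Syt16 has no value.

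In the role by role account of this comparison, paired values give the heterozygote first and the mutant second. Among the SNAREs of synaptic fusion, Snap25 was called. Snap25 (mm10 chromosome 2, 136713453 to 136782428) fell by 1.03 on the log2 scale. Vamp2, its partner on the vesicle, was at 20.8 and 14.3 RPKM, with p = 0.00095 but q = 0.111 in the authors' deposited table. Stx1a, a syntaxin of the fusion complex, was at 1.95 and 1.63 RPKM and Vamp1, a relative of Vamp2, at 1.73 and 1.85 RPKM, neither called.

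The syntaxin-binding proteins Stxbp2 to Stxbp6 act outside or beside the synaptic complex. None of these 5 was called by Cuffdiff, and 1, Stxbp5, had a transcript at an unadjusted p below 0.05. Stxbp4 was at 25.2 and 24.3 RPKM, Stxbp6 at 15.9 and 16.0 RPKM and Stxbp3 at 18.6 and 15.0 RPKM. Stxbp2 (Munc18-2), which serves secretion in blood and epithelial cells, had 36.2 and 52.3 RPKM, with the lowest p of its transcripts at 0.259 in the authors' deposited table. Stxbp5, tomosyn, was at 5.93 and 6.02 RPKM.

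None of the 4 listed calcium-sensing synaptotagmins was called, or had an unadjusted p below 0.05, by Cuffdiff, and their ratios stayed between -0.14 and 0.06 on the log2 scale. Syt1, the main sensor for fast release, was at 15.8 and 14.4 RPKM, and Syt9 at 10.0 and 10.5 RPKM; Syt5 was at 3.69 and 3.39 RPKM and Syt7 at 1.18 and 1.20 RPKM. Among the 7 other synaptotagmins listed, 2 were called. Syt13 (chromosome 2, 92915098 to 92956058), which lacks the calcium-binding residues, fell by 1.17 on the log2 scale. Syt4 (chromosome 18, 31437808 to 31449099), a synaptotagmin of dense-core vesicles, fell by 1.66, from 2.98 to 0.942 RPKM, the steepest ratio of all members. Syt11, the most abundant synaptotagmin, was at 53.7 and 58.1 RPKM and was not called. Syt16 was at 1.46 and 0.771 RPKM, with q = 0.291 in the authors' deposited table. The mutant value of Syt16 is under 0.906 RPKM, the lowest that the higher group of any listed transcript reaches. That of Syt4, 0.942 RPKM, lies just above this limit. In all, 4 members had their lower group under it. Syt14, Syt15 and Syt17 were under 5 RPKM and not called.

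Of 5 listed genes for proteins of the vesicle itself, 1 was called. Synaptophysin, encoded by Syp (chromosome X, 7638471 to 7657258), is an abundant protein of the synaptic vesicle membrane and fell by 1.03 on the log2 scale. Sv2b, a vesicle glycoprotein, was at 3.58 and 1.52 RPKM, with p = 0.0023 and q = 0.198 in the authors' deposited table. Syn1, which tethers vesicles to actin, was at 3.29 and 1.56 RPKM (log2 ratio -1.08), with p = 0.105 in the authors' deposited table. Syn3 was at 4.54 and 4.75 RPKM and Sv2c at 0.780 and 1.13 RPKM. The median log2 ratio of the 5 was -1.03.

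Of 8 listed genes of priming and tethering, Rab3c was called. Summed RPKM was lower in the mutant in each of the 8, where 45.4% of all genes were lower, with a median log2 ratio of -0.54; that of Unc13b was -0.01 and turned to 0.19 with its most abundant transcript. Rab3 GTPases sit on vesicles and bind Rim proteins at the release site. Rab3c (chromosome 13, 110054187 to 110280206) fell by 0.96, from 2.62 to 1.35 RPKM. Rab3a was at 9.34 and 5.95 RPKM, Rab3b at 6.10 and 4.09 RPKM and Rab3d at 1.65 and 1.17 RPKM, with q of 0.833 or more in the authors' deposited table. Of the Unc13 priming factors, Unc13a, the main neuronal one, was at 14.5 and 7.21 RPKM, divided over 5 transcripts of which none was called, and Unc13b at 29.6 and 29.4 RPKM. Rims2 was at 3.93 and 3.40 RPKM and Rims3 at 0.994 and 0.807 RPKM. The complexins were not called either, with 12.6 and 10.6 RPKM for Cplx2 and 1.23 and 1.07 RPKM for Cplx1.

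In the disassembly step, 1 of 3 genes was called. Napb (β-SNAP, the neuronal adaptor; chromosome 2, 148693985 to 148732467) was at 6.88 and 4.52 RPKM, and its called transcript fell from 5.96 to 2.63 RPKM. The widely expressed adaptor Napa was at 26.6 and 35.4 RPKM, and Nsf at 20.8 and 25.1 RPKM, neither called. The clathrin adaptor Snap91 (AP180), which shares only its name with the SNAREs and retrieves vesicles after fusion, was at 13.2 and 7.70 RPKM, without a call among its 5 transcripts.

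The 18 other SNAREs mostly serve the Golgi, endosomes, lysosomes and the general cell surface. Their median log2 ratio was 0.19, and 4 of them had lower summed RPKM. Vamp3, of recycling endosomes, was the most abundant member of all, with 90.8 and 104 RPKM. Snap23, the general relative of Snap25, was at 22.6 and 26.9 RPKM, and Stx4a, its cell-surface partner, at 29.7 and 36.6 RPKM. Stx12, Stx5a and Snap47 were at 34.6 and 29.1, at 26.0 and 26.7 and at 22.6 and 27.8 RPKM. Vamp4 was at 12.1 and 14.05 RPKM, with its most abundant transcript at 9.36 and 7.28 RPKM, Stx8 at 14.5 and 19.7 RPKM, and Stx2 at 10.7 and 11.3 RPKM. The 4 with lower sums were Stx7, Stx16, Stx12 and Snap29, of which Stx7 was called. Stx16 was at 18.7 and 13.4 RPKM and Snap29 at 11.5 and 10.3 RPKM. Stx7, a late endosomal syntaxin (chromosome 10, 24149317 to 24188959), fell by 0.90 on the log2 scale, from 20.7 to 11.1 RPKM. Vamp8, its partner in lysosomal fusion, was at 14.5 and 21.7 RPKM, with p = 0.00375 and q = 0.269 in the authors' deposited table.

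**Figure D2:**
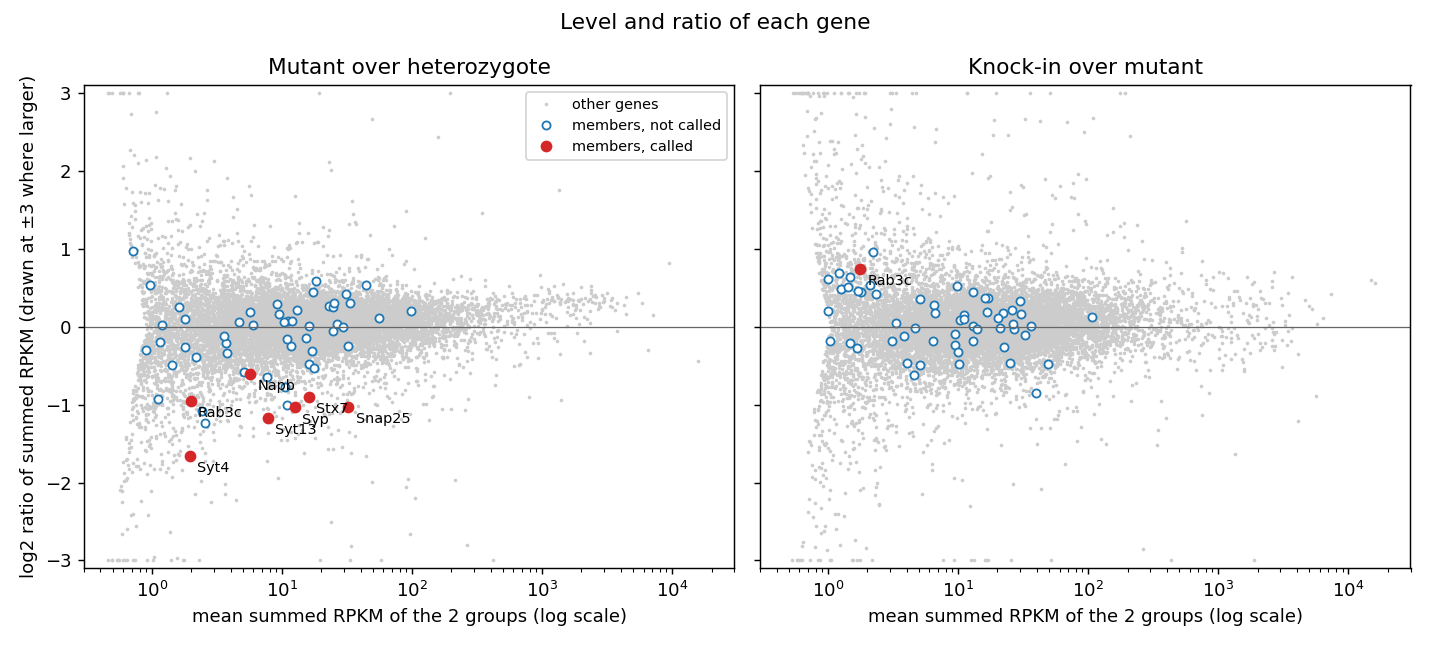
Log2 ratio of summed RPKM against the mean of the 2 groups (log axis) for every gene with a finite ratio, in each comparison; grey points are other genes, open circles members that were not called and filled circles called members, for 57 of the 59 members. The 7 called members in the left panel run from Syt4 and Rab3c at the lowest means to Snap25 at the highest.

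The second comparison, knock-in against mutant, differs in one allele: the knock-in takes the place of GFP. Paired values here give the mutant first. Rab3c alone was called, from 1.32 to 2.21 RPKM, a rise of 0.74 on the log2 scale, with q = 0.0254 in the authors' deposited table. This is 1 of 58 members (1.72%), against 1.03% of the 11989 genes of the table called higher, a share near that of all genes. By the Cuffdiff test none was called lower, against 0.634% of all genes. At q of 0.10 or less, 1 was again higher (1.61% of all genes) and 0 lower (0.951%), and so they were after the 1 RPKM filter (1.04% and 0.659%). With the deposited p unadjusted and below 0.05, 7 members had a higher transcript (Rab3c, Rab3d, Snap25, Stx7, Sv2b, Syp and Syt4), where 8.56% of all genes did. On the same criterion 3 had a lower transcript (Snap23, Stx3 and Unc13b), where 6.46% of all genes did.

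Members were higher in the knock-in in 35 of 58 cases, with a median log2 ratio of 0.10, against 49.7% of all genes and a median of 0.00. A log2 ratio of 0.5 or above was found in 9 members (15.5%) and 8.12% of all genes, and one of -0.5 or below in 2 members (3.45%) and 7.81% of all genes. Syp was at 8.00 and 11.4 RPKM (p = 0.00505, q = 0.242 in the authors' deposited table) and Stx7 at 10.9 and 14.9 RPKM (q = 0.313 there). Sv2b was at 1.49 and 2.90 RPKM and Syt4 at 0.924 and 1.49 RPKM, neither called. The mutant value of Syt4 is here under 1.04 RPKM, the lowest that the higher group of any listed transcript reaches in this comparison. The lower group of 4 members was under that limit. In the other direction, Stxbp2 was at 51.2 and 28.4 RPKM, Syt11 at 57.0 and 40.9 RPKM, and Unc13b at 28.8 and 20.9 RPKM, without a call. Vamp3 was at 102 and 111 RPKM. Snap23 summed to 26.4 and 33.3 RPKM, but its most abundant transcript had the opposite direction, 26.4 and 13.2 RPKM (p = 0.00145, q = 0.115 in the authors' deposited table), and 3 others were at or near 0 in the mutant and at 12.4, 6.56 and 1.12 RPKM in the knock-in.

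Markers of tissue around the retina were called higher in the knock-in. Of pigment epithelium markers 9 of 10 were listed, with 24.0 RPKM in the mutant and 110 RPKM in the knock-in and 7 called higher. The 5 of 9 lens markers listed summed to 34.0 and 76.4 RPKM, with 3 called higher and Foxe3 listed at 0 in the mutant, and the 6 of 7 blood markers to 34.3 and 128 RPKM, with 2 called higher. The 4 of 8 periocular mesenchyme markers listed summed to 18.0 and 30.3 RPKM, with 1 called. In the first comparison the listed markers of pigment epithelium (5), lens (3), blood (4) and mesenchyme (3) summed to 19.6 and 22.7, 36.0 and 34.3, 29.4 and 33.9, and 19.5 and 18.1 RPKM, with no call by Cuffdiff and 5, 1, 1 and 1 genes at an unadjusted p below 0.05. Endothelial markers (2 of 5 listed) were at 23.3 and 30.0 RPKM in the first table and 29.5 and 24.0 RPKM in the second, and the one macrophage marker listed, of 5, at 11.2 and 4.83 RPKM and at 4.74 and 3.61 RPKM, without a call. Their part in the member values was not tested. Sample titles begin their numbering with 466 for heterozygote and mutant and with 311 for the knock-in. What that number stands for is not given, and any effect of it cannot be told apart from the knock-in.

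Because the mutant samples are in both tables, the comparisons share them, and values are set side by side without a test. Mutant values of single-transcript genes in the second table stood at a median log2 ratio of -0.03 to those in the first. Of the members called lower in the mutant, Rab3c had a heterozygote value of 2.62 RPKM, mutant values of 1.35 and 1.32 RPKM in the first and second table, and a knock-in value of 2.21 RPKM, which is 84.6% of the first. Napb summed to 6.88, then 4.52 and 4.43, then 5.66 RPKM (82.3%), while its called transcript alone stood at 61.6%. Stx7 stood at 71.8% and Syp at 68.4% of the heterozygote in the knock-in. Snap25 stood at 54.3%, with 43.3, then 21.3 and 20.9, then 23.5 RPKM, or at 66.0% for its called transcript alone, and Syt4 at 49.9%. Syt13 had the lowest share, with 10.7, then 4.75 and 4.66, then 4.59 RPKM, or 42.8%. Each of these 7 was lower in the knock-in than in the heterozygote by these pooled values, whose difference was not tested.

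**Figure D3:**
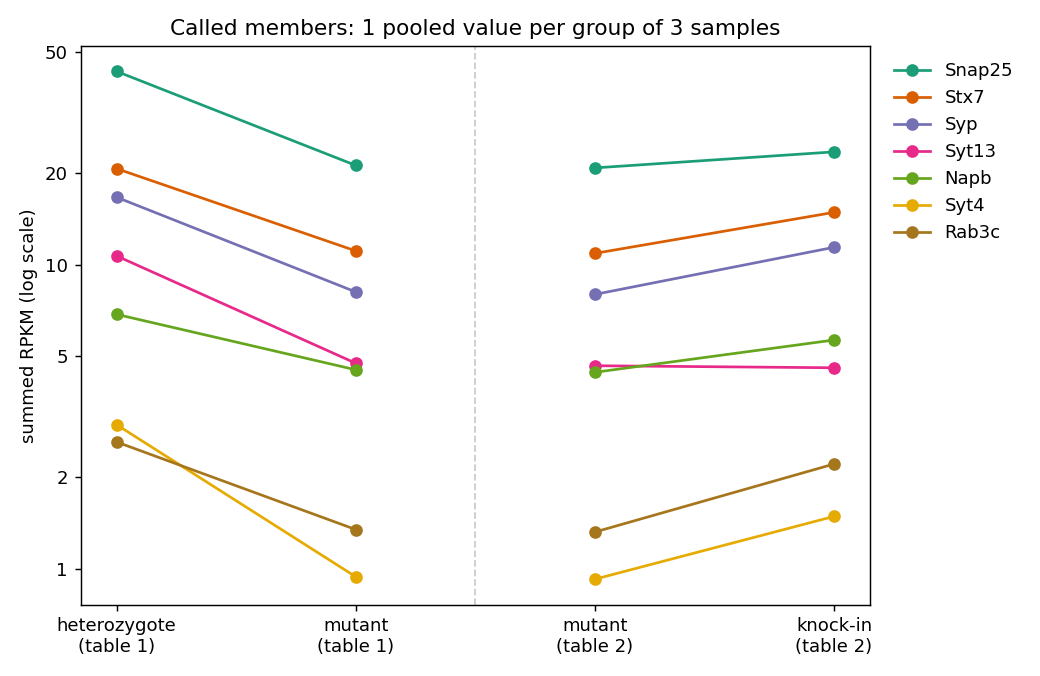
Summed RPKM (log axis) of 7 called members in the heterozygote and mutant of the first table and in the mutant and knock-in of the second; each point is one pooled value per group of 3 samples, without an error bar because none was deposited. Every line falls on the left; on the right Syt13 stays near 4.6 RPKM while Rab3c goes from 1.32 to 2.21 RPKM.

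For 4 members (Vamp1, Unc13a, Snap91 and Rims2) the mutant values of the tables differed by more than 0.1 on the log2 scale from the usual offset, so different transcripts were listed and their values cannot be followed across tables. Unc13a, for example, was at 7.21 RPKM in the mutant with 5 transcripts and at 5.54 RPKM with 3. Single transcripts were therefore matched through their mutant value, within 0.05 of that offset, which followed 89 transcripts of 54 members through the groups. The larger Snap25 transcript went from 35.7 RPKM in the heterozygote to 17.1 RPKM in the mutant and 23.5 RPKM in the knock-in. The smaller one went from 7.66 to 4.20 RPKM and was listed at 0 in the knock-in, with p of 0.435 and 0.121 in the authors' deposited table. The summed Snap25 value of the knock-in, 23.5 RPKM, therefore rests on the larger transcript alone.

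Napb had transcripts that differed in direction. The called one went from 5.96 to 2.63 RPKM and then to 3.67 RPKM, and the other from 0.916 to 1.88 and then 1.99 RPKM, with p = 0.0292 and q = 0.786 for its first difference in the authors' deposited table. The summed log2 ratio of Napb, -0.61, was therefore smaller in size than the -1.18 of its called transcript. Syt11 had an abundant transcript with 45.9, 42.9 and 37.1 RPKM and a lesser one with 7.80, 15.2 and 3.79 RPKM. Stxbp2 likewise had one transcript with 0.986, 12.2 and 0.529 RPKM beside a main one with 23.1, 25.4 and 14.6 RPKM, none of them called. For Nsf, one transcript was at 4.66, 2.44 and 0.00351 RPKM while another was at 9.97, 12.3 and 14.2 RPKM.

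**Figure D4:**
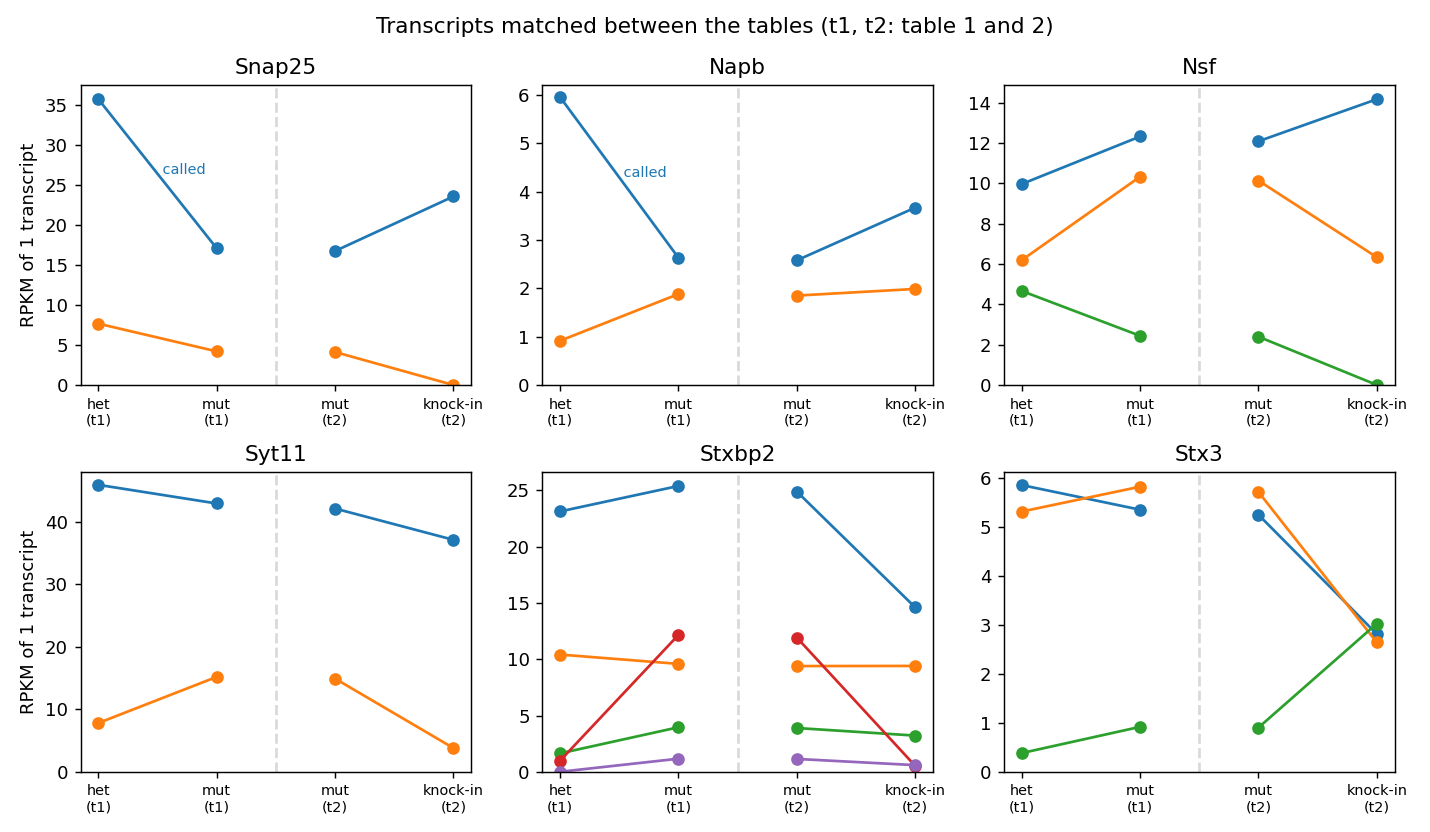
RPKM of single transcripts matched between the tables for 6 members; each colour is one transcript, with heterozygote and mutant of the first table left of the dashed line and mutant and knock-in of the second right of it. Transcripts of one gene can differ in direction, as in Napb (5.96 to 2.63 RPKM against 0.916 to 1.88 RPKM), and the smaller Snap25 transcript ends at 0.

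Other genes of the release pathway were taken from lists that were also chosen with earlier results of these data known. Vesicular transmitter transporters had 2 of 7 genes listed in the first comparison. Both were called lower, where 1.09% of all genes were. Slc17a6, the glutamate transporter of ganglion cells, went from 1.98 to 0.713 RPKM, and Slc18a2, the monoamine transporter, from 7.87 to 4.36 RPKM. Of 12 listed genes of the active zone scaffold and its modulators, 11 had lower summed RPKM, where 45.4% of all genes did. The median log2 ratio of the 12 was -0.38. Cuffdiff called 1 of them, Ppfia2 (liprin-α2), from 2.96 to 1.76 RPKM, where 1.09% of all genes were called lower. An unadjusted p below 0.05 was found in 6 of the 12. The large scaffold Bsn, a gene outside the naming rule and chosen after its values were seen, was at 6.29 and 4.32 RPKM, with q = 0.104 in the authors' deposited table. Cuffdiff called no gene of 21 for endocytosis and recycling (2 had an unadjusted p below 0.05), with a median of 0.09, and none of 16 for other vesicle membrane proteins (3 had), with a median of -0.09. In the second comparison none of the 4 lists held a call, and 1 transporter, 2 active zone, 1 endocytosis and 4 other membrane genes had an unadjusted p below 0.05; their medians were 0.56 for Slc18a2, the one transporter listed, and 0.10, -0.07 and 0.07 for the others.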

How the data were processed

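Groups were taken from the sample titles. The submitters' processing notes name Bowtie2, Cufflinks, Cuffdiff and the mm10 build, without versions. Per the file headers, each of 2 deposited tables holds an RPKM value per transcript and group and the authors' Cuffdiff p-value and q-value. The authors gave 1 pooled value per group of 3 samples, so any spread between samples could enter only through their Cuffdiff p-values. How the samples entered that test could not be checked from pooled values. The 3 samples of a group carry separate numbers, but their litters are not named, and depth per sample is unknown. The tables hold 27311 and 26586 transcripts, 120 and 123 of them of members, and list a transcript where the higher group reaches about 1 RPKM (0.906 and 1.04).

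With Python 3.11.15 and pandas 2.3.3, RPKM was summed per symbol and log2 ratios were taken without a pseudocount. Transcripts with a date (57 and 55) or no symbol (116 and 117) were left out. Loci were converted to count from base 1. The deposited q-values equalled a Benjamini-Hochberg adjustment of the deposited p-values to within 5.26e-07; summing and adjustment were tested on simulated data. Named members were those called, those at 10 RPKM or more in the heterozygote and the 2 most abundant per role, 37 in all; others are given to complete a role. Of other pathway genes, those called are named. The counts of members include some that are not reported individually here. The members and lists were chosen with earlier results of these data known. Alternatives were the q threshold, a filter at 1 RPKM, pseudocounts, the most abundant transcript and centring.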

Additional observations from a re-analysis of the deposited data

How the results depend on the processing

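The counts of members called, 8 lower in mutant against heterozygote and 1 higher in knock-in against mutant, were the same at q of 0.10 or less and after adjusting the authors' p-values again over transcripts with a mean of at least 1 RPKM. At an unadjusted p under 0.05 they were 16 and 7. The medians of -0.14 and 0.10 kept their sign under all alternatives run, between -0.18 and -0.11 and between 0.09 and 0.11. Of 74 ratios of named members, 32 moved by 0.1 or more on the log2 scale when the most abundant transcript replaced the sum, 7 with a pseudocount of 1 RPKM and none with one of 0.1 RPKM or with centring; no called member changed sign. Among members not called, the most abundant transcript had the opposite sign to the sum for Napa, Stx3, Stx5a, Syt11, Unc13b and Vamp4 in the first comparison and for Cplx1, Nsf, Snap23, Snap91, Stx5a, Stxbp3 and Vamp4 in the second. Centring turned the near-zero ratios of Stx5a and Stxbp6 in the first comparison. No paired analysis was possible because the tables hold pooled groups, and for the same reason no sample could be left out. Members with few RPKM, and 18 RefSeq symbols of the rule that were not listed, are limits of these tables.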
